A study of Mus musculus with 8 samples.

Results

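The genes described here make cholesterol and fatty acids, and were read in secondary neurospheres grown from the forebrain of FoxO3 null and wild type mice of the FVB/N strain. The list holds 32 mouse symbols, named for their place in the pathway. A gene was measured by the probe set with the highest mean over 8 arrays among those annotated to that symbol alone. By this rule 31 of the 32 genes were measured, of 18193 genes in all: 17 enzymes of sterol synthesis, 5 genes of sterol sensing and transport, and 9 genes of the fatty acid branch. Acat2 was not analysed here.

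RNA of each sample was hybridised to its own Affymetrix Mouse430_2 array. The FoxO3 null group has 4 arrays, from neurospheres of mice that lack the transcription factor FoxO3, and the wild type group has 4. The titles split them into set 1 and set 2, each with 2 FoxO3 null and 2 wild type arrays. All 8 samples were seeded at 50000 cells/ml and collected on day 6. Their medium held bFGF at 20 ng/ml and EGF at 20 ng/ml, growth factors that keep neural progenitors dividing. The meaning of a set, the age and sex of the mice, and whether each array had its own culture or animal are not given in the labels. A p-value here measures array-to-array spread, part or all of which may be technical.

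Cholesterol is built from acetyl-CoA through the mevalonate pathway, which first makes isoprenoid units, joins them into squalene, closes the ring as lanosterol and then trims lanosterol step by step. Membrane-bound SREBP transcription factors switch these genes on when sterols are scarce: SCAP escorts SREBP out of the endoplasmic reticulum and INSIG proteins hold it back. SREBP2 acts mainly on the sterol genes and SREBP1c on the fatty acid genes, and dividing neural progenitors need both lipids for new membrane, while later oligodendrocytes make large amounts of cholesterol for myelin.

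The promoters of 6 members are shown because the 250 bases before a gene's start are where SREBP and its partner NF-Y are known to act on these genes. Hmgcs1 encodes a sterol enzyme from the top of the pathway, and Tm7sf2, Sc5d and Msmo1 encode enzymes of the steps after lanosterol. Insig1 and Srebf2 are from the sensing and transport group and encode a brake on SREBP and SREBP2 itself. The windows lie outside the annotated genes at chr13:119690101-119690350 (+ strand, Hmgcs1), chr19:6067851-6068100 (- strand, Tm7sf2), chr9:42264301-42264550 (- strand, Sc5d), chr8:64733579-64733828 (- strand, Msmo1), chr5:28071162-28071411 (+ strand, Insig1) and chr15:82147019-82147268 (+ strand, Srebf2). Sequences are from RefSeq, build GRCm38.p6, written in the direction of the gene. Capitals mark the NF-Y type motif CCAAT or its reverse complement ATTGG, and in Hmgcs1 also the SREBP type motif TCACNCCAC.
Hmgcs1: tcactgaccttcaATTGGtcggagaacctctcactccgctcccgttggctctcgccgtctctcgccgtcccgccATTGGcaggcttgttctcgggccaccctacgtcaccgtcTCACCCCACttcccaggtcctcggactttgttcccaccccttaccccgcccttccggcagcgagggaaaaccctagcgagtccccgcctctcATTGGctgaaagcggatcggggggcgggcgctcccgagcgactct
Tm7sf2: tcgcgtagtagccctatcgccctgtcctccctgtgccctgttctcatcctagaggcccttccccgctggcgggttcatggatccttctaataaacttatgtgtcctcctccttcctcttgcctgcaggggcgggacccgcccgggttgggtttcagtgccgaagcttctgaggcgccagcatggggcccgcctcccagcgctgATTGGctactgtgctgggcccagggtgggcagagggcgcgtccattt
Sc5d: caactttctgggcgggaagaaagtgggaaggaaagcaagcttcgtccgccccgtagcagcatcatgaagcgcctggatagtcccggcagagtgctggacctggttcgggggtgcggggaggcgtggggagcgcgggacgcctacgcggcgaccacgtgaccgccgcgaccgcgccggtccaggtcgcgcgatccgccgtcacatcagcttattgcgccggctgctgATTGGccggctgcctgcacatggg
Msmo1: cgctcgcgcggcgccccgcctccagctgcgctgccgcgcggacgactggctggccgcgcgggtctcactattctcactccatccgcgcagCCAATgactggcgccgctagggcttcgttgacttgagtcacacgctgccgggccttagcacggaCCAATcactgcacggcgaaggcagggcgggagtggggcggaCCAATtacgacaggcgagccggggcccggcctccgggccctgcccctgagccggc
Insig1: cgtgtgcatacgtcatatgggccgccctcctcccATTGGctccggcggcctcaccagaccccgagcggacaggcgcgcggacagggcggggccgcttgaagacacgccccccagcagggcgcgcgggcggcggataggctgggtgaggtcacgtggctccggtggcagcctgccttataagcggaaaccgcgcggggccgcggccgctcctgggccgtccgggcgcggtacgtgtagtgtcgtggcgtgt
Srebf2: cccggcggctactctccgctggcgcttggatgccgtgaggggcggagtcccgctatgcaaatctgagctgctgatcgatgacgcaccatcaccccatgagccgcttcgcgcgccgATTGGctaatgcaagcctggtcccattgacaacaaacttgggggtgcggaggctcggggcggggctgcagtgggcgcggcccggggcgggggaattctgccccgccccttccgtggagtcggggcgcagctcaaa

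CCAAT stood on either strand of the window of 14 of the 14 sterol enzymes that have one, against 37.5% of 27025 mouse genes with a window. The stricter SREBP type motif TCACNCCAC was in 1 of these 14, Hmgcs1, with its first base at position -137, against 1.22% of all genes. Of the 4 sensing genes with a window, Insig1, Srebf1 and Srebf2 held CCAAT, and of the 6 fatty acid genes, Fasn and Thrsp did. GTAAACA, a motif of the forkhead family to which FoxO3 belongs, was in 0 of the 14 sterol enzymes and 0 of the 4 sensing genes, and in 1 of the 6 fatty acid genes, Elovl6 at position -123, against 3.54% of all genes. No 2 matches of different motifs overlapped in these genes. A match is a string of letters and not a bound site, and 7 measured members (Sqle, Fdft1, Fdps, Fads1, Scd1, Scd2 and Stard4) were not part of this search.

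**Figure D1:**
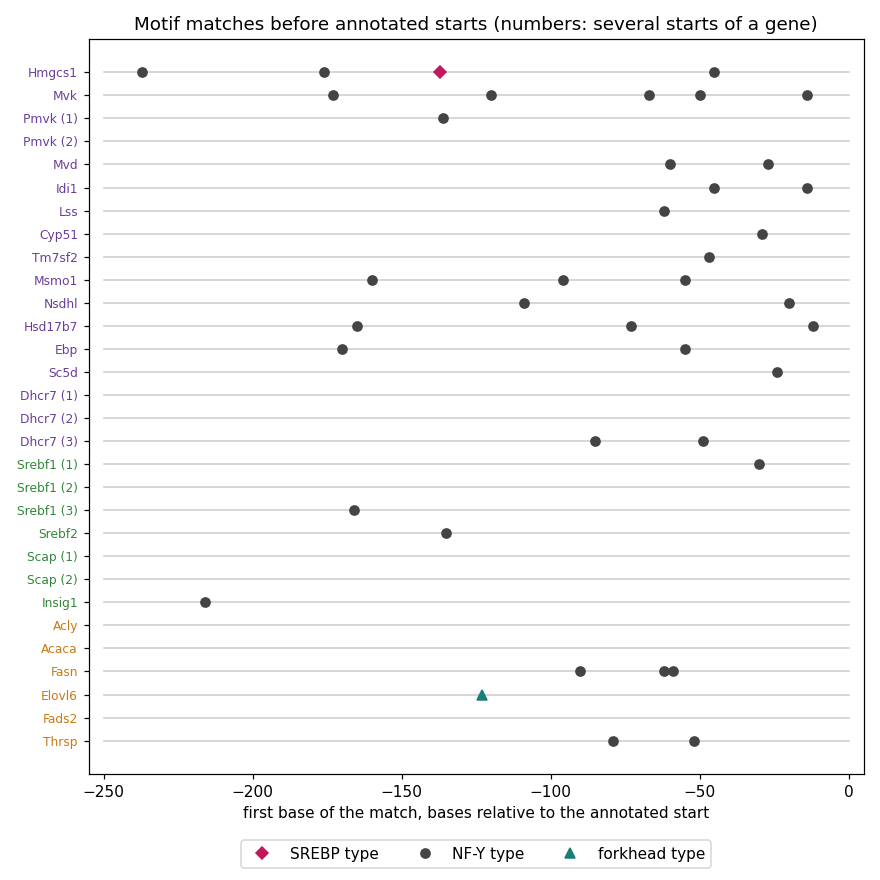
Positions of the motif matches in the 250 bases before each annotated start, 1 line per start, with the first base of each match on the horizontal axis and members coloured by group. The 14 sterol enzymes at the top each have a CCAAT match at a start, while the SREBP type match stands in Hmgcs1 alone and the forkhead type match in Elovl6 alone.

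Foxo3, the gene lacking in the null mice, had log2 signals on its brightest probe set of 8.86 and 9.08 in FoxO3 null against 10.24 and 10.26 in wild type in set 1, and 9.05 and 9.14 in FoxO3 null against 10.32 and 10.00 in wild type in set 2. No overlap was seen, and which part of the gene is deleted is not given in the labels. Of its probe sets, 2 of 3 were lower in FoxO3 null neurospheres, by 1.17 ± 0.08 and 1.07 ± 0.10 (log2, SE; limma on all probe sets, adjusted p = 0.000649 and 0.0021). The third, which is dim, differed by 0.33 ± 0.08 with adjusted p = 0.11. Over both sets 291 of 18193 genes passed at an adjusted p of 0.05, of which 78 rose and 213 fell. The sets stood apart: across genes, arrays of the same set correlated at 0.9957 or more, and arrays of different sets at 0.9908 or less. Of 7 neural stem and progenitor markers, 1 rose, 0 fell, 5 had a difference below 0 and the list's median was -0.045. The 1 that rose was Nes, the progenitor filament nestin, by 0.29 ± 0.06 (adjusted p = 0.0332). Of 8 astrocyte and 8 neuron markers, 0 rose and 1 each fell (Slc1a2 by 0.84 and Gad1 by 0.91), 3 of each list had a difference above 0, and the medians were -0.076 and -0.16. Of 8 endothelial and mesenchymal markers 0 passed over both sets and the median was 0.032, and 2 had an unadjusted p under 0.05 (limma), against 15.5% of all genes. In set 2, 1 of the 8 passed, against 1.93% of all genes: Acta2, higher by 0.83 (limma adjusted p = 0.0139). There 5 of the 8 were above 0 and 3 below, with a median of 0.042. The Y-linked genes had a mean log2 signal of 7.90 and 8.09 in the FoxO3 null arrays of set 1, against 8.35 and 8.18 in wild type, and of 6.88 and 7.10 in FoxO3 null in set 2, against 7.80 and 7.66 in wild type.

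The sterol enzymes leaned opposite ways in the sets, and no single enzyme passed the test. In set 1 the log2 difference, FoxO3 null minus wild type, was below 0 for 13 of 17 enzymes, with a median of -0.078. In set 2 it was above 0 for 17 of 17, with a median of 0.13. Over all 18193 genes the medians were 0.0153 in set 1 and 0.0025 in set 2, with 55.61% and 50.83% of genes above 0. Over both sets, in set 1, in set 2 and in the test of the difference between the sets, 0 of 17 enzymes passed, where 1.6%, 0.742%, 1.93% and 0.187% of all genes did. The smallest adjusted p-values were 0.148 (Ebp, over both sets), 0.214 (Msmo1, set 1), 0.0694 (Lss, set 2) and 0.156 (Lss, between the sets). At an unadjusted limma p under 0.05 there were 1, 4, 4 and 6 of 17 enzymes, where 15.5%, 10.9%, 14.3% and 8.7% of all genes had one. With limma's variance trend and robust option Msmo1 passed in set 1, Lss, Sc5d and Tm7sf2 in set 2, and Lss and Msmo1 between the sets. More genes passed with this option: 392 of all 18193 in set 1, 778 in set 2 and 154 between the sets. The set 1 median was -0.12 without the first and -0.021 without the second wild type array of that set, and the set 2 median was 0.077 without the first FoxO3 null array and 0.079 without the first wild type array.

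Read array by array, the same values showed the same lean, which is no separate evidence. With set and genotype means removed, the enzymes still moved together (median correlation 0.61 over 8 arrays). The counts of enzymes below are therefore not counts of separate observations. In set 2 both FoxO3 null arrays lay above both wild type arrays for 12 of 17 sterol enzymes, against 23.6% of all genes, and below them for 0 of 17, against 21.3%. In set 1 both FoxO3 null arrays lay below both wild type arrays for 7 of 17, against 17.7% of all genes, and above them for 2 of 17, against 23.3%. On the brightest probe set of each gene, Hmgcs1, Lss, Cyp51 and Msmo1 were below in set 1 and above in set 2, a pattern of 2.58% of all genes.

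**Figure D2:**
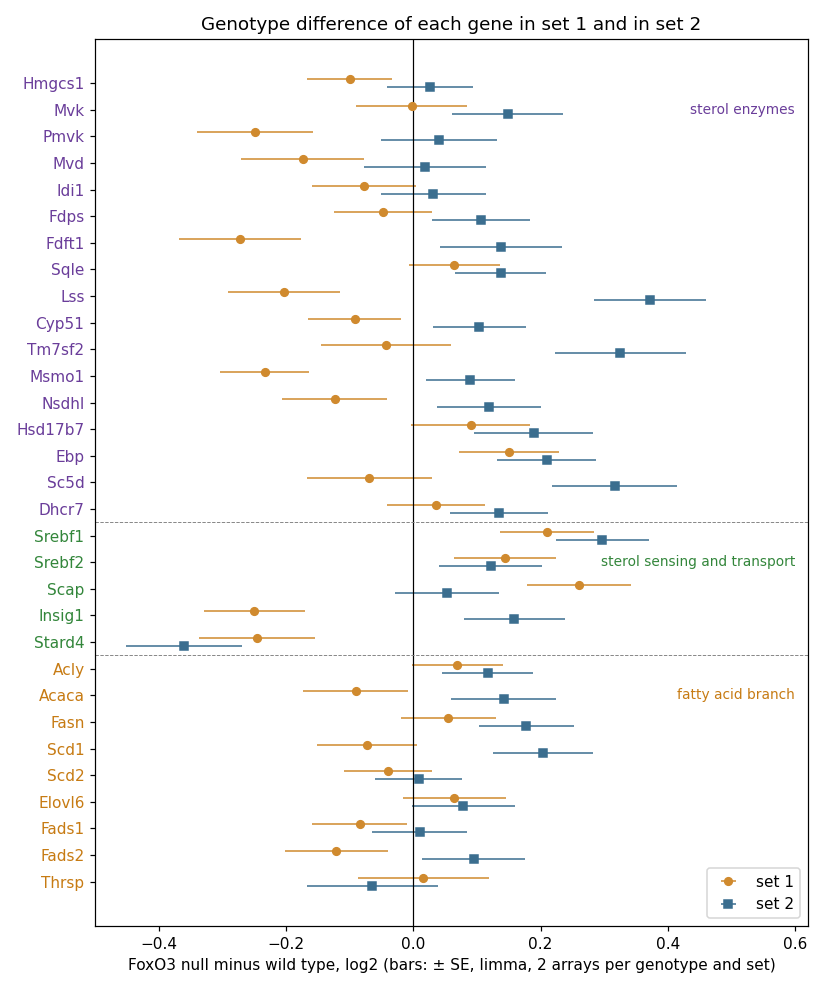
Log2 difference between FoxO3 null and wild type for each of the 31 genes, with set 1 as circles, set 2 as squares and bars of 1 standard error (limma, 2 arrays per genotype and set). For all 17 sterol enzymes the square lies right of the circle, from 0.06 for Ebp to 0.58 for Lss, whereas Srebf1 lies right of 0 and Stard4 left of 0 in both sets.

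Y-linked signal also differed between the genotypes. In set 2, where Y-linked signal was lower in both FoxO3 null arrays, adding the Y-linked mean of each array to the fit turned the sterol median to -0.11, with 4 of 17 enzymes above 0. In set 1 the same term moved the median to -0.17. The slope of the term came only from the 2 arrays within each set and genotype. Those differed less in Y-linked mean than the genotypes did in set 2 (6.88 and 7.10 against 7.80 and 7.66). They also differed less than the genotypes did in set 1 (7.90 and 8.09 against 8.35 and 8.18). The values with this term are therefore extrapolations in both sets, and further ones in set 2. The Y-linked means of the genotypes did not overlap within either set, and their part and that of genotype cannot be told apart.

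The upper mevalonate enzymes gave no call. Hmgcs1, which condenses the building blocks of mevalonate, had log2 signals of 13.92 and 13.95 in FoxO3 null and 14.01 and 14.05 in wild type in set 1, and 13.89 and 13.90 in FoxO3 null and 13.87 and 13.87 in wild type in set 2. The groups did not overlap in either set, but the differences were -0.10 ± 0.07 and 0.026 ± 0.068 (SE), and neither passed. The kinases Mvk and Pmvk and the decarboxylase Mvd, which turn mevalonate into the first isoprenoid unit, differed by -0.0028, -0.25 and -0.17 in set 1 and by 0.15, 0.041 and 0.019 in set 2. Idi1, the isomerase of that unit, and Fdps, which makes farnesyl diphosphate, differed by -0.078 and -0.048 in set 1 and by 0.031 and 0.11 in set 2.

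Squalene and lanosterol synthesis held Lss and Fdft1, the sterol enzymes whose difference changed most between the sets. Fdft1, squalene synthase, the first step committed to sterols, had 11.33 and 11.31 in FoxO3 null against 11.57 and 11.61 in wild type in set 1, and 11.76 and 11.51 in FoxO3 null against 11.41 and 11.58 in wild type in set 2. Its groups were apart in set 1 and overlapped in set 2, and the difference moved by 0.41 ± 0.14 between the sets (adjusted p = 0.378). Sqle, the epoxidase after it, differed by 0.065 in set 1 and 0.14 in set 2.

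Lss, lanosterol synthase, closes the sterol ring and moved most. In set 1 it had 9.57 and 9.50 in FoxO3 null against 9.68 and 9.79 in wild type. In set 2 it had 10.03 and 9.85 in FoxO3 null against 9.50 and 9.63 in wild type. The FoxO3 null arrays were therefore the lowest of set 1 and the highest of set 2, with no overlap in either. The differences were -0.20 ± 0.09 and 0.37 ± 0.09 (adjusted p = 0.432 and 0.0694), and the change between them was 0.58 ± 0.12 (adjusted p = 0.156). A second Lss probe set of similar mean signal moved the same way, with differences of -0.47 in set 1 and 0.14 in set 2, and the third, which is dim, did not, with 0.19 and -0.033.

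**Figure D3:**
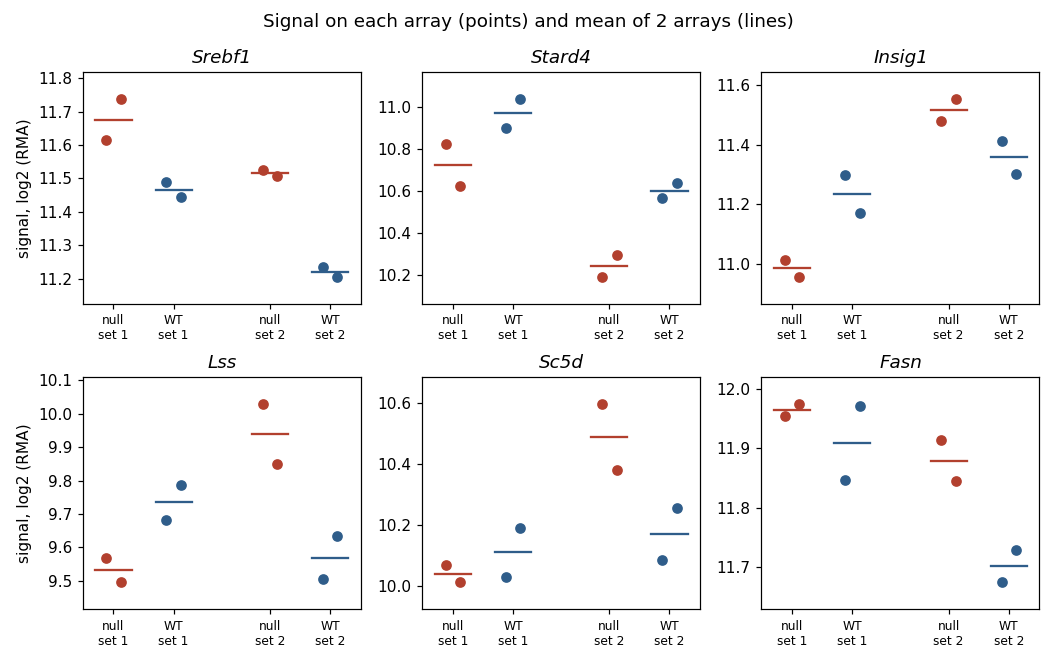
Log2 signal on each array (points) and the mean of the 2 arrays (lines) for 6 members, each on its brightest probe set. FoxO3 null is left of wild type in each set. Lss and Insig1 change order between the sets, Srebf1 is higher and Stard4 lower in FoxO3 null in both, and in Sc5d and Fasn the groups are apart in set 2 and overlap in set 1.

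The enzymes that trim lanosterol to cholesterol gave the same signs of the median, with no call. Sc5d, the desaturase near the end of the route, had 10.07 and 10.01 in FoxO3 null against 10.03 and 10.19 in wild type in set 1, and 10.60 and 10.38 in FoxO3 null against 10.09 and 10.26 in wild type in set 2. Its groups overlapped in set 1 and were apart in set 2, where the difference was 0.32 ± 0.10 (adjusted p = 0.168). This holds for its brightest probe set (mean 10.20). The second (9.92) differed by -0.12 in set 1 and by 0.023 in set 2, where its groups overlapped. The third (7.59) differed by -0.30 and 0.12. Tm7sf2, a sterol reductase, had 9.39 and 9.55 in FoxO3 null against 9.45 and 9.58 in wild type in set 1, and 9.93 and 9.81 in FoxO3 null against 9.41 and 9.67 in wild type in set 2, a difference there of 0.33 ± 0.10 (adjusted p = 0.175). Msmo1, the oxidase that removes methyl groups, had 11.95 and 11.90 in FoxO3 null against 12.13 and 12.19 in wild type in set 1, and 12.16 and 12.16 in FoxO3 null against 12.06 and 12.08 in wild type in set 2. Its groups were apart in both sets, in opposite order, with differences of -0.23 ± 0.07 and 0.090 ± 0.070.

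The remaining enzymes of this stretch did not pass either. Cyp51, the demethylase that opens it, and Nsdhl, a dehydrogenase, differed by -0.092 and -0.12 in set 1 and by 0.10 and 0.12 in set 2. Hsd17b7, Ebp and Dhcr7, which finish the sterol nucleus, differed by 0.091, 0.15 and 0.035 in set 1 and by 0.19, 0.21 and 0.13 in set 2, so that these 3 and Sqle were the 4 enzymes above 0 in both sets. Ebp, the isomerase, came nearest to passing over both sets, with 9.31 and 9.44 in FoxO3 null against 9.16 and 9.30 in wild type in set 1, and 9.66 and 9.66 in FoxO3 null against 9.45 and 9.45 in wild type in set 2 (0.18 ± 0.05, adjusted p = 0.148).

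Sterol enzymes also differed as a block between arrays of the same set and genotype. The signal of the array numbered 2 minus that of the array numbered 1 was below 0 for 15 of 17 enzymes in FoxO3 null of set 2, while it was above 0 for 15 of 17 in wild type of set 2 and for 16 of 17 in wild type of set 1. In these 3 pairs the median gap was -0.10, 0.11 and 0.11, close in size to the genotype medians, and over all genes it was -0.0039, 0.0053 and 0.0152. In FoxO3 null of set 1 the gap was above 0 for 7 of 17 and below 0 for 10, with a median of -0.015. The list median relative to each gene's mean was -0.11 and -0.13 in FoxO3 null and -0.080 and -0.013 in wild type in set 1. In set 2 it was 0.21 and 0.087 in FoxO3 null and -0.066 and 0.041 in wild type, so the FoxO3 null arrays of set 2 were the highest of the 8 and those of set 1 the lowest.

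**Figure D4:**
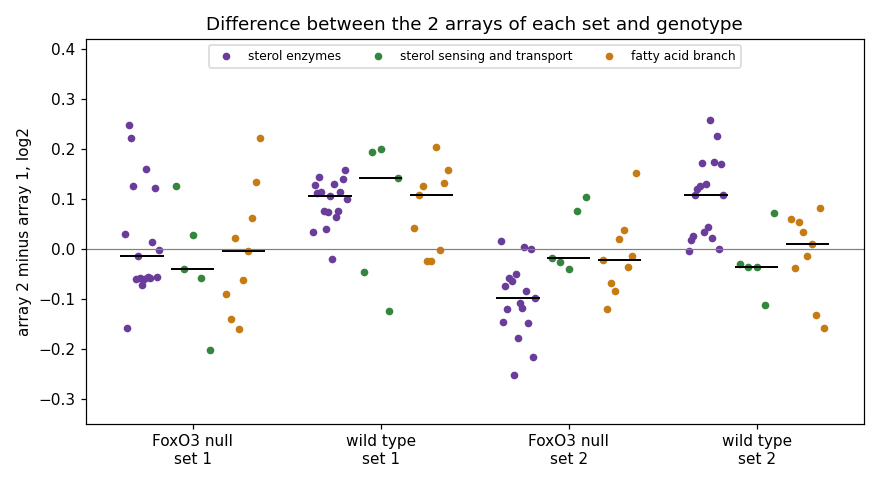
Difference between the 2 arrays of each set and genotype, array 2 minus array 1 on the log2 scale, for each gene (points) with the median of each gene group (line). Most sterol enzymes lie below 0 in FoxO3 null of set 2 (median -0.10) and above 0 in wild type of both sets (median 0.11 in each).

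Among the genes of sterol sensing and transport, 1 of 5 rose and 1 fell over both sets, where 0.429% of all genes rose and 1.17% fell. Srebf1 rose and Stard4 fell, and Srebf2, Scap and Insig1 did not pass. In set 1 alone, set 2 alone and between the sets 0 of 5 passed by limma, against 0.742%, 1.93% and 0.187% of all genes. At an unadjusted limma p under 0.05 there were 4, 2 and 1, against 10.9%, 14.3% and 8.7% of all genes. Since the RNA is from whole cultures, more or fewer cells of a type and more or less RNA per cell cannot be told apart.

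Srebf1 encodes SREBP1, the factor known for switching on fatty acid synthesis genes. The gene lies at chr11:60199084-60224186 (GRCm38.p6). It had 11.61 and 11.74 in FoxO3 null against 11.49 and 11.44 in wild type in set 1, and 11.53 and 11.51 in FoxO3 null against 11.23 and 11.20 in wild type in set 2. All 4 FoxO3 null arrays were above all 4 wild type arrays, which holds for 2.02% of all genes and for no other member. Srebf1 rose by 0.25 ± 0.05 (SE, limma adjusted p = 0.0386), with 0.21 ± 0.07 in set 1 and 0.30 ± 0.07 in set 2 (adjusted p = 0.312 and 0.0834). Its probe set does not tell the SREBP1a and SREBP1c transcripts apart in this table.

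Stard4 encodes a small protein that carries cholesterol between membranes inside the cell. The gene lies at chr18:33199138-33213862 (GRCm38.p6). It had 10.83 and 10.62 in FoxO3 null against 10.90 and 11.04 in wild type in set 1, and 10.19 and 10.29 in FoxO3 null against 10.57 and 10.64 in wild type in set 2. The groups were apart in each set, though the FoxO3 null arrays of set 1 reached the level of wild type in set 2. Stard4 fell by 0.30 ± 0.06 (limma adjusted p = 0.0486), with -0.25 ± 0.09 in set 1 and -0.36 ± 0.09 in set 2. All 3 of its probe sets were lower in both sets, with log2 differences over both sets of -0.30, -0.22 and -0.23.

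Both calls are near the threshold. With all 45037 probe sets in the fit the adjusted p was 0.0668 for Srebf1 and 0.0767 for Stard4, a block for replicate number or the mean of the 2 arrays ended both calls, and leaving out any array but the first FoxO3 null array of set 1 ended each of them, with differences then between 0.24 and 0.27 for Srebf1 and between -0.34 and -0.27 for Stard4.

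Insig1 encodes a brake on SREBP and is itself a known SREBP target. It had 11.01 and 10.96 in FoxO3 null against 11.30 and 11.17 in wild type in set 1, and 11.48 and 11.56 in FoxO3 null against 11.41 and 11.30 in wild type in set 2. It was the only sensing gene with its groups apart in opposite order in the sets, as for Lss, with differences of -0.25 ± 0.08 and 0.16 ± 0.08 and a change of 0.41 ± 0.11 (adjusted p = 0.288). Scap, the escort of SREBP, had 10.82 and 10.84 in FoxO3 null against 10.47 and 10.67 in wild type in set 1, and 10.90 and 10.86 in FoxO3 null against 10.85 and 10.81 in wild type in set 2. Srebf2, which encodes the main activator of sterol genes, had 10.09 and 10.05 in FoxO3 null against 9.83 and 10.02 in wild type in set 1, and 10.53 and 10.50 in FoxO3 null against 10.41 and 10.37 in wild type in set 2. In FoxO3 null, Srebf1, Srebf2, Scap, Hsd17b7, Ebp and Acly were above wild type without overlap in each set, 6 of 31 members against 7.77% of all genes. This holds for the brightest probe set of each. The next brightest of Acly (mean 11.58) differed by -0.039 in set 1 and -0.12 in set 2, and the one after it (10.19) by 0.047 and 0.26. A second probe set of Srebf2 (9.42) differed by 0.0080 and -0.017. Stard4 was below in each set, 1 of 31 members against 6.54% of all genes, and 0 of 31 were above in set 1 and below in set 2, against 3.26%. For Scap and Srebf2, the differences over both sets were 0.16 ± 0.06 and 0.13 ± 0.06 (adjusted p = 0.276 and 0.278).

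In the fatty acid branch no gene passed. In set 1 the log2 difference was below 0 for 5 of 9 genes, with a median of -0.040, and in set 2 it was above 0 for 8 of 9, with a median of 0.095. Both FoxO3 null arrays lay above both wild type arrays for 6 of 9 genes in set 2, against 23.6% of all genes, and for 1 of 9, Acly, in set 1, against 23.3%. They lay below for 0 of 9 in set 2, against 21.3%, and for 1 of 9, Fads1, in set 1, against 17.7%. Over both sets, in set 1, in set 2 and between the sets 0 of 9 passed, against 1.6%, 0.742%, 1.93% and 0.187% of all genes. The smallest adjusted p was 0.271 (Scd1, set 2). At an unadjusted limma p under 0.05 there were 0 of 9 over both sets, 0 in set 1, 2 in set 2 and 1 between the sets, against 15.5%, 10.9%, 14.3% and 8.7% of all genes. With the variance trend and robust option Scd1 passed in set 2, where 778 of all 18193 genes did. The set 1 median was -0.061 without its first wild type array and -0.0090 without its second FoxO3 null array. With the Y-linked mean in the fit, an extrapolation as for the sterol enzymes, the set 2 median was -0.041, with 3 of 9 genes above 0.

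Fasn, the synthase that builds the saturated chain, had 11.95 and 11.97 in FoxO3 null against 11.85 and 11.97 in wild type in set 1, and 11.91 and 11.84 in FoxO3 null against 11.67 and 11.73 in wild type in set 2. The groups overlapped in set 1 and were apart in set 2, with differences of 0.055 ± 0.075 and 0.18 ± 0.08. Scd1, which puts a double bond into the chain, had 12.40 and 12.24 in FoxO3 null against 12.40 and 12.38 in wild type in set 1, and 12.78 and 12.70 in FoxO3 null against 12.52 and 12.55 in wild type in set 2, differences of -0.073 ± 0.079 and 0.20 ± 0.08. Its paralogue Scd2, the desaturase most abundant in brain, differed by -0.040 and 0.0083.

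Acly, which makes cytosolic acetyl-CoA for both branches, differed by 0.069 and 0.12, and Acaca, the carboxylase that commits it to fatty acids, by -0.091 and 0.14. Elovl6, which lengthens the chain, differed by 0.065 and 0.079. The desaturases Fads1 and Fads2, which make polyunsaturated chains, differed by -0.084 and -0.12 in set 1 and by 0.010 and 0.095 in set 2. Thrsp, a small protein linked to lipogenesis, was the exception in set 2, with 0.016 in set 1 and -0.064 in set 2.

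Set beside each other, both branches had a median change above 0 between the sets, and the difference between the branches was not tested. In set 2 the order of the branch medians turned with the probe set of largest variance, which gave 0.17 for fatty acid genes and 0.13 for sterol enzymes. The change from set 1 to set 2 in the genotype difference was above 0 for 17 of 17 sterol enzymes, with a median of 0.19, and for 8 of 9 fatty acid genes, with a median of 0.094. Over all genes it was above 0 for 47.86%, with a median of -0.0070. Across all 31 members it was above 0 for 27, and the genes at or below 0 were Srebf2, Scap, Stard4 and Thrsp. No member passed the test of this change, while 34 of 18193 genes did, so the opposite leaning of the sets was not shown for any gene.

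The choice of probe set did not change the sign of the sterol and fatty acid medians, but it changed single genes. In set 2, 14 of 17 sterol enzymes were above 0 with the probe set of largest variance and 15 of 17 with probe set means. The second brightest probe sets of Hmgcs1, Cyp51 and Idi1 differed there by -0.035, -0.079 and -0.27. For the sensing and transport genes the set 1 median was 0.14 by gene and 0.0080 over their 9 probe sets. Of 38 probe sets of the 17 sterol enzymes, 27 were below 0 in set 1 and 31 above 0 in set 2, and of 25 probe sets of the 9 fatty acid genes, 17 were below 0 in set 1 and 18 above 0 in set 2. Of these, 0 of 38 and 0 of 25 passed by limma over both sets, where 361 of all 45037 probe sets did.

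**Figure D5:**
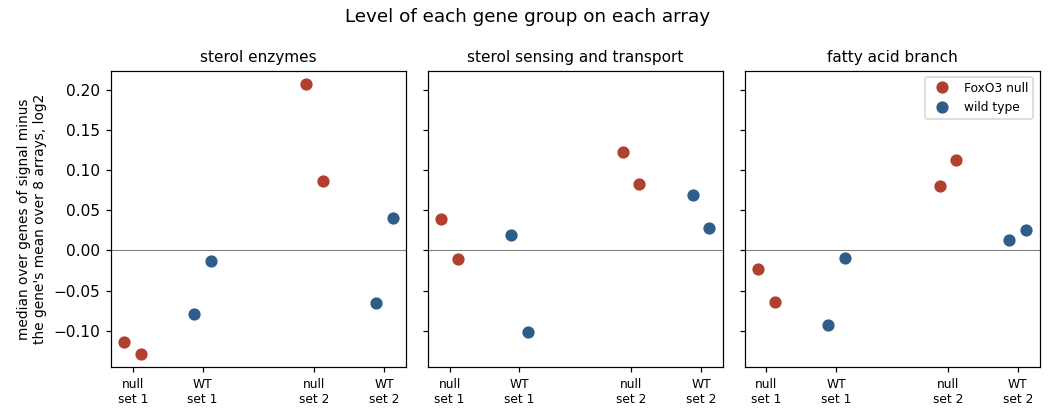
Median over the genes of each group of the log2 signal minus the gene's mean over 8 arrays, 1 point per array, with FoxO3 null left of wild type in each set. For sterol enzymes the FoxO3 null arrays lie at -0.11 and -0.13 in set 1 and at 0.21 and 0.087 in set 2, below and above all wild type arrays.

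Between wild type of set 2 and wild type of set 1, 5 of 31 members passed, a smaller share than the 30% of all genes that did. Srebf2, Scap and Fads2 rose by 0.47, 0.26 and 0.25, and Srebf1 and Stard4 fell by 0.25 and 0.37 (adjusted p = 0.00213, 0.0375, 0.0385, 0.0298 and 0.013). Both wild type arrays of set 2 lay above both of set 1 for 14 of 31 members, against 33.2% of all genes, and below them for 8 of 31, against 33.4%. Of the 17 sterol enzymes 0 passed by limma, 3 had an unadjusted p under 0.05, against 41.4% of all genes, and the median was 0.026. The oligodendrocyte lineage list moved with the sets: 8 of 11 measured markers rose, 0 fell and the median was 0.91, with Mag and Mbp, both myelin proteins, up by 3.08 and 2.63.

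Oligodendrocyte markers also differed by genotype. Of 11 markers 1 rose and 1 fell in set 1, where 0.742% of all genes passed. In set 2, 0 rose and 2 fell, where 1.93% of all genes passed. Mbp was the 1 higher in FoxO3 null in set 1, by 0.87 (limma adjusted p = 0.00346), and differed by 0.015 in set 2. Its change between the sets of -0.86 passed (adjusted p = 0.0366), as the only 1 of 11, against 0.187% of all genes. Over both sets 0 of 11 markers rose and 4 fell, against 0.429% and 1.17% of all genes. Of the 11, 5 had a difference above 0, and the median was -0.043. Pdgfra, Cspg4, Sox10 and Gpr17, found in progenitors of the lineage, fell by 0.67, 0.56, 0.27 and 0.66, while Olig1 and Olig2, which progenitors also express, differed by 0.046 and -0.043 and did not pass. The list's median per array, relative to each gene's mean, ran from -0.70 to -0.55 in FoxO3 null and from -0.24 to -0.21 in wild type in set 1. In set 2 it ran from 0.23 to 0.41 in FoxO3 null and from 0.66 to 0.75 in wild type. These gaps are not the genotype difference of a typical marker. The median of the markers' differences was 0.047 in set 1, with 6 of 11 above 0, and -0.14 in set 2, with 4 of 11 above 0. Of microglial and blood markers, 0 of 7 passed or had an unadjusted p under 0.05 over both sets (limma), against 1.6% and 15.5% of all genes. That list's median lay between -0.16 and 0.12 over the 8 arrays. The part of these cell types in the sterol values was not tested. The 3' minus 5' signal of actin, a measure of RNA integrity, lay between 0.47 and 0.49 in FoxO3 null and between 0.52 and 0.54 in wild type in set 1. In set 2 it lay between 0.33 and 0.36 in FoxO3 null and 0.36 and 0.39 in wild type. That of Gapdh lay between -0.102 and -0.0864 in FoxO3 null and between -0.0763 and -0.0735 in wild type in set 1. In set 2 the Gapdh values overlapped, between -0.115 and -0.099 in FoxO3 null and between -0.105 and -0.0742 in wild type. The part of RNA integrity was not tested either.

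Genes next to the pathway were read from 4 further lists. Of 11 other sterol and isoprenoid genes, 0 rose and 1 fell over both sets, against 0.429% and 1.17% of all genes. Insig2, the second SREBP brake, had 9.10 and 8.94 in FoxO3 null against 9.44 and 9.38 in wild type in set 1, and 9.23 and 9.23 in FoxO3 null against 9.52 and 9.53 in wild type in set 2. Its groups were apart in each set, and it fell by 0.34 ± 0.05 (limma adjusted p = 0.0145), unlike Insig1. Ggps1, Mbtps1, Dhdds, Acat1 and Cyb5b did not pass, with differences over both sets of -0.11, 0.098, -0.026, -0.027 and 0.14.

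Of 14 genes of sterol uptake, storage and efflux, 0 rose and 1 fell over both sets, against 0.429% and 1.17% of all genes, and 1 of 14 passed in set 2, against 1.93%. Apoe, the lipoprotein with which astrocytes pass cholesterol to other brain cells, had 11.75 and 11.72 in FoxO3 null against 11.96 and 12.06 in wild type in set 1, and 12.24 and 12.24 in FoxO3 null against 12.85 and 12.63 in wild type in set 2. It fell by 0.39 ± 0.07 over both sets (adjusted p = 0.0217) and by 0.50 ± 0.09 in set 2 (adjusted p = 0.0203). Vldlr, a lipoprotein receptor, had the larger difference, -0.49 ± 0.12, but did not pass (adjusted p = 0.0839). Abca1, Mylip and Cyp46a1 did not pass, at 0.19, -0.043 and -0.26. The list's median was -0.050, where all genes had 0.0091.

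Of 18 other genes of fatty acid and glycerolipid synthesis, 0 rose and 1 fell over both sets, against 0.429% and 1.17% of all genes, and 1 of 18 passed in set 1, against 0.742%. Lpin1, the phosphatase that makes diacylglycerol, had 9.83 and 9.80 in FoxO3 null against 10.13 and 10.08 in wild type in set 1, and 9.83 and 9.77 in FoxO3 null against 10.06 and 10.01 in wild type in set 2, and fell by 0.26 ± 0.05 (adjusted p = 0.0256). Acss2, which makes acetyl-CoA from acetate, had 9.50 and 9.35 in FoxO3 null against 10.14 and 9.96 in wild type in set 1, and 10.45 and 10.24 in FoxO3 null against 10.41 and 10.41 in wild type in set 2. It fell in set 1 by 0.63 ± 0.10 (adjusted p = 0.0201) and differed by -0.068 in set 2, and the change between the sets, 0.56 ± 0.14, did not pass (adjusted p = 0.212). Acsl3, Dgat2, Me1 and Slc25a1 did not pass over both sets, at -0.22, -0.069, -0.19 and -0.18. Of 11 genes of fatty acid oxidation 0 passed or had an unadjusted p under 0.05 by limma over both sets, against 1.6% and 15.5% of all genes. Their median was -0.016, and Cpt1a, the gate of that pathway, differed by 0.041 ± 0.056.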

How the data were processed

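The deposited values are log2 expression per probe set, 1 column per array, made by the authors with RMA, per the submitters' processing notes. RMA subtracts background, makes array distributions alike and summarises the probes, so a shift shared by all genes is hidden and differences of dim probe sets are compressed. Its version, and whether the 8 arrays were processed together, are not given in the sources used here. Array medians lay between 6.27 and 6.31. The number of arrays limits the precision.

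Of 45101 probe sets, 64 controls were left out. Platform annotation gave 1 symbol to 34945, several to 932 and none to 9160. Each of 18193 genes was read from its brightest probe set with that symbol alone. The test was limma 3.58.1 (lmFit, eBayes; R 4.3.3), two-sided, with Benjamini-Hochberg adjustment over all genes and a threshold of 0.05. The fit over both sets had set as an additive term. Differences within sets, between sets and between wild types came from 1 fit of the 4 combinations of set and genotype. Differences are FoxO3 null minus wild type unless said otherwise. Members and lists were chosen with earlier results of these data known, so list counts and medians carry no test.

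Genes named were all measured members and, from each neighbouring list, up to 4 by smallest p between the sets and up to 2 over both sets. Cell type markers are given as list counts, and the markers singled out were chosen after their values were seen. Replicate numbers did not pair the arrays: same-numbered deviations correlated at 0.12 in set 1 and -0.11 in set 2. In simulated arrays of 18193 genes with independent noise, the fit over both sets recovered 91 of 100 changes of 0.5 and 100 of 100 changes of 1, with 16 false among 207 passing. In set 2 it recovered 63 and 90, with 11 false among 164. Changes below 0.5 were not simulated. The largest member differences were -0.30 over both sets and 0.37 in set 2, so recovery at the members' sizes is not known. Alternatives changed the probe set, normalization, filter, variance model, block and arrays used.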

Additional observations from a re-analysis of the deposited data

Results flagged for a closer look

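Elovl6 in wild type had 1 array far from the others: 11.12 on the first array of set 1, against 11.32, 11.32 and 11.33 on the other 3. The gap was 0.947 of the range over the 4 arrays and passed Dixon's criterion for an outlying value. Of 62 groups of 4 arrays examined, this was the only one, and chance alone flags about 1 in 20.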

How the results depend on the processing

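Srebf1 and Stard4 kept their direction in all 19 alternatives and each lost its call in 14. Members passing over both sets, 2 as reported, came to 0 with all probe sets, the probe set of largest variance, the replicate block, the Y-linked mean as covariate, no set term or the mean of the 2 arrays, and to 1 with quantile normalization again (Srebf1) or median centring (Stard4). Leaving out single arrays gave 0 to 2. With a variance trend and robust fit, 3 members passed in set 1 (Insig1, Msmo1, Scap), 6 in set 2 (Lss, Sc5d, Scd1, Srebf1, Tm7sf2, Stard4) and 3 between the sets (Insig1, Lss, Msmo1), where 0 passed as reported, and with the brighter 9096 genes 3 passed in set 2 (Lss, Srebf1, Stard4). Between wild types, 5 members became 3 with all probe sets, 15 with the largest variance, 12 with probe set means, 10 among brighter genes, 13 with the variance trend, 0 with the Y-linked covariate and 1 to 4 without single arrays. Scap turned to -0.17 there with the largest variance.

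The sterol median was -0.21 in set 1 with the largest variance and -0.17 with the Y-linked covariate, and -0.11 in set 2 with that covariate. Without single arrays it ran from -0.12 to -0.021 in set 1 and from 0.077 to 0.17 in set 2. The fatty acid median in set 2 was 0.17 with the largest variance, 0.13 with probe set means and -0.041 with the Y-linked covariate, and without single arrays it ran from 0.076 to 0.12, and from -0.061 to -0.0090 in set 1. The medians with the Y-linked covariate are extrapolations in both sets, as said above. The counts between wild types with that covariate are too, since Y-linked signal differed there by -0.54 on average, set 2 minus set 1. The cause of these changes was not tested. A set and genotype left with 1 array is assumed to vary like the others.

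Genes passing over both sets (291) came to 456 among brighter genes, 604 with the variance trend, 133 with the replicate block, 8 with the Y-linked covariate, 3 with no set term and 0 with array means (limma, 1805 at an unadjusted p under 0.05). In set 1 (135) they came to 275, 392, 104 and 12 in the first 4 of these and 63 in set 1 arrays alone, in set 2 (351) to 488, 778, 195 and 2, with 171 in set 2 arrays alone, and between the sets (34) to 54, 154, 14 and 3. Between wild types (5463) they came to 10735 with all probe sets and 973 with the Y-linked covariate. Without single arrays the counts ran from 104 to 222, 15 to 117, 84 to 289, 11 to 32 and 3162 to 5297 in these 5 comparisons.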
